A study of Mus musculus with 9 samples.

Results

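This account covers 10 genes of prostaglandin metabolism and signaling in BeCon mouse ovarian tumor cells. They are Ptgs1, Ptgs2, Ptges, Ptges2, Ptges3, Ptgis, Hpgd, Ptger2, Ptger4 and Ptgir. They were picked by gene symbol, all 10 were found among the 48230 genes kept from the deposited table, and 7 of them reached the level asked for in the treatment test. RNA was sequenced in 9 libraries. The first group, 4 libraries, was tumor cells from ascites of B6 mice that carried BeCon tumors and received YKL-05-099, an inhibitor of the salt-inducible kinases. In 1 library BeCon cells had been grown in culture, with no replicate. The remaining 4 were tumor cells from ascites of B6 mice with BeCon tumors given the vehicle. All 8 mouse libraries were made from viable cells sorted as CD45- and MHCI+. The dose and schedule of the compound, the age of the mice, the derivation of the BeCon line and the number of mice behind each library are not stated in the labels, so a p-value here reflects only how far these libraries spread. Library names of the treated mice begin differently from those of the vehicle mice, and a batch behind that difference, if there was one, cannot be told apart from treatment.

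Prostaglandins are short-lived lipid mediators made from arachidonic acid. Phospholipases release arachidonic acid from membranes, the cyclooxygenases COX-1 (Ptgs1) and COX-2 (Ptgs2) turn it into the unstable intermediate prostaglandin H2, and terminal synthases convert that into prostaglandin E2, prostacyclin, prostaglandin D2, prostaglandin F2 alpha or thromboxane. Each product acts on its own G protein-coupled receptors. The prostaglandin E2 receptors EP2 (Ptger2) and EP4 (Ptger4) and the prostacyclin receptor IP (Ptgir) raise cyclic AMP, which activates protein kinase A. Protein kinase A in turn holds back the salt-inducible kinases, and those kinases keep CRTC proteins, the coactivators of CREB, out of the nucleus. In ovarian cancer, COX-1 is known as a highly expressed isoform, and prostaglandin E2 is known for dampening immune cells in tumors.

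Levels are given as FPKM, that is fragments scaled to transcript length and to the mapped fragments of the library, so levels of different genes can be set side by side. The lowest values of long genes with a single transcript put the depth at roughly 23400000 to 35500000 fragments per library. The sorted cells carried mesothelial and ovarian surface markers, with Upk3b at 580 to 633 FPKM and Wt1 at 501 to 529 FPKM in YKL-05-099 cells and Upk3b at 548 to 575 FPKM and Wt1 at 551 to 565 FPKM in vehicle cells. Of 9 ovarian tumor and epithelial markers, Krt18 stood at 241 to 251 FPKM and Krt8 at 57.9 to 62.4 FPKM in YKL-05-099 cells and Krt18 at 166 to 177 FPKM and Krt8 at 47.4 to 71.6 FPKM in vehicle cells. Krt7, Folr1 and Cd24a were also above 1 FPKM in all mouse libraries, and Epcam, Cdh1 and Pax8 stayed under 1 FPKM in all 9 libraries. Macrophage transcripts differed between the groups: 13 markers summed to 23.3 to 90.8 FPKM in YKL-05-099 cells, 11.4 FPKM in cultured cells and 157 to 350 FPKM in vehicle cells, and 10 of 11 tested ones fell with treatment. In culture 7 of the 13 were listed at 0, among them C1qa, C1qb, C1qc, Adgre1 and Cd14. Ptprc, which encodes CD45, was at 0.0308 to 0.276 FPKM in YKL-05-099 cells, 0 in cultured cells and 0.346 to 0.772 FPKM in vehicle cells, and 15 pan-leukocyte markers summed to 22.4 to 30.6 FPKM in YKL-05-099 cells, 20.5 FPKM in cultured cells and 39.8 to 72.1 FPKM in vehicle cells. In culture 7 of those 15 were listed at 0 and 5 were at 1 FPKM or more, led by Lsp1 at 5.97 FPKM and Cytip at 5.67 FPKM. The pan-leukocyte sum, and a covariate made from the same markers, thus also take in transcripts present in cultured BeCon cells. Of the tested markers of other cell types, 5 of 6 fibroblast markers fell, the platelet and megakaryocyte marker Itga2b rose and Pf4 fell, and no mast cell or endothelial marker passed. Erythroid transcripts, 6 markers in all, summed to 1.45 to 92.8 FPKM in YKL-05-099 cells and 244 to 1490 FPKM in vehicle cells. In such bulk samples, fewer cells of a type and less RNA per cell cannot be told apart.

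YKL-05-099 treatment went with more EP4 receptor and COX-1 transcript and less prostacyclin synthase transcript in the sorted cells. Ptger4 averaged 3.54 ± 0.151 FPKM in YKL-05-099 cells and 1.83 ± 0.366 FPKM in vehicle cells, Ptgs1 averaged 114 ± 8.73 FPKM in YKL-05-099 cells and 92.6 ± 11.05 FPKM in vehicle cells, and Ptgis averaged 232 ± 16.8 FPKM in YKL-05-099 cells and 272 ± 20.1 FPKM in vehicle cells (SD, n = 4 each). COX-2 and the prostaglandin E synthases did not pass the test. Of the 7 tested genes, 2 rose and 1 fell (limma on log2(FPKM + 1), Benjamini-Hochberg adjusted p under 0.05), where 28.0% of all 11788 genes tested rose and 15.1% fell, 43.2% in either direction. The median log2 fold change of the 7 genes was 0.10, and that of all genes tested was 0.05. With median-of-ratios scaling of the libraries, the share of higher calls among all calls was 49.7%, against 64.9% with the deposited values.

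**Figure D1:**
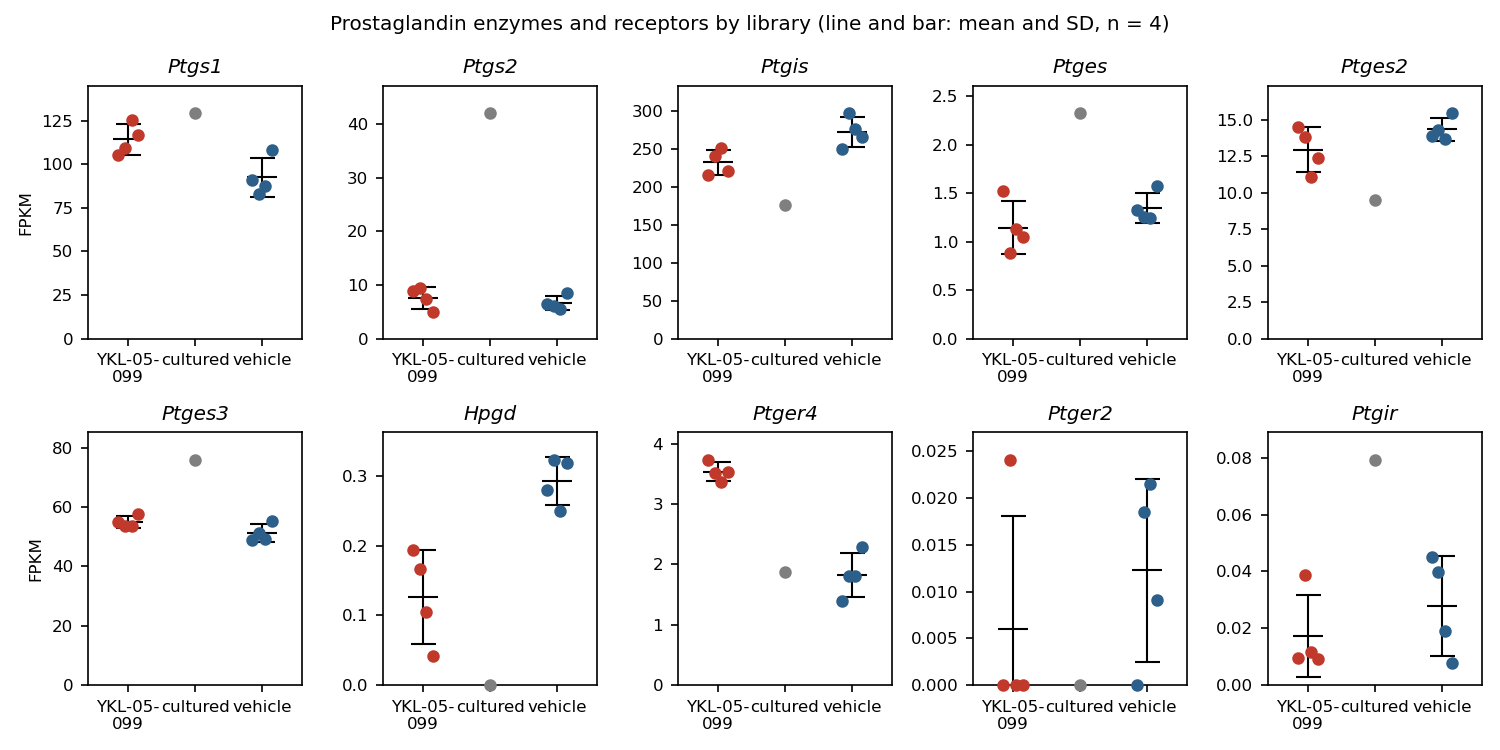
FPKM of the 10 genes in every library, with YKL-05-099 in red, the single cultured library in gray and vehicle in blue; black marks give mean and SD over 4 libraries. Ptger4 and Hpgd are the genes whose YKL-05-099 and vehicle values do not overlap, and the cultured library stands far above all others for Ptgs2.

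Ptgs1 (ENSMUSG00000047250, chromosome 2, 36230426 to 36252272, plus strand, GRCm38, as are all coordinates here) encodes COX-1, usually described as the constitutive cyclooxygenase. It stood at 106, 109.5, 125 and 117 FPKM in YKL-05-099 cells and at 91.0, 83.2, 87.8 and 108 FPKM in vehicle cells. The groups overlapped by 1 library, since vehicle replicate 4 lay above YKL-05-099 replicate 1. The log2 fold change was 0.31 (SE 0.0834, 95% interval 0.12 to 0.49, limma adjusted p = 0.0147). Its level exceeded that of 94.2% of tested genes in YKL-05-099 cells and 92.6% in vehicle cells. With the mean of 15 pan-leukocyte markers as a covariate, which itself separates the groups without overlap, the log2 fold change was 0.17 (SE 0.167) and did not pass (limma adjusted p = 0.609). The part of leukocyte and macrophage RNA in the Ptgs1 difference was not tested.

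Ptgs2 (ENSMUSG00000032487, chromosome 1, 150100031 to 150108227, plus strand) encodes COX-2, the cyclooxygenase that many cells switch on in response to cytokines, growth factors and cyclic AMP. It was at 8.80, 9.43, 7.38 and 4.86 FPKM in YKL-05-099 cells and at 6.37, 6.05, 5.42 and 8.50 FPKM in vehicle cells. The lowest and the highest of the 8 values were both YKL-05-099 libraries, and the groups overlapped. The log2 fold change was 0.17 (SE 0.180, 95% interval -0.24 to 0.57, limma adjusted p = 0.480). This interval includes changes as large as those of Ptgs1. Its spread within groups, an SD of 0.314 log2 units, was wider than that of 96.5% of tested genes, whose median was 0.0974. COX-1 made up most of the cyclooxygenase transcript in every library. The sum of both genes was 122 ± 7.82 FPKM in YKL-05-099 cells and 99.2 ± 12.3 FPKM in vehicle cells, and Ptgs2 made up 6.29% ± 1.87 of it in YKL-05-099 cells and 6.60% ± 0.608 in vehicle cells (SD, n = 4 each).

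**Figure D2:**
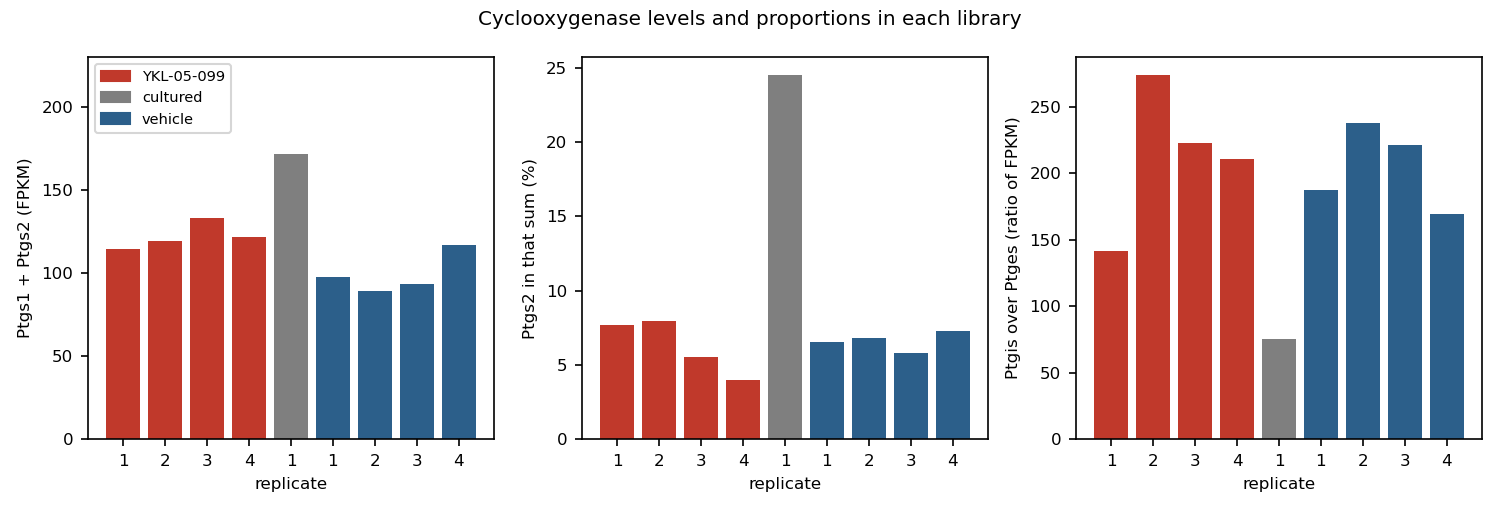
Summed FPKM of both cyclooxygenase genes, the percent of that sum from Ptgs2, and the ratio of Ptgis to Ptges FPKM, 1 bar per library (YKL-05-099 red, cultured gray, vehicle blue). Ptgs2 makes up 3.99 to 7.93% of the sum in YKL-05-099 libraries, 24.5% in the cultured library and 5.81 to 7.27% in vehicle libraries.

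The 250 bases upstream of the start site are printed for the cyclooxygenase genes and for Ptger4, because these 3 genes hold the rises under treatment and the large difference in culture. They come from RefSeq's GRCm38.p6 promoter table, which held 9 of the 10 genes, and are read 5′ to 3′ along the gene. Capitals mark matches, on either strand, to the cAMP response element TGACGTCA, its half-site TGACG, the TATA box TATAAA, the E-box CACGTG, the C/EBP motif TTNNGCAA, an NF-kappaB motif or the GC box GGGCGG. Ptgs1 lies at chr2:36230176-36230425 (plus strand), Ptgs2 at chr1:150099781-150100030 (plus strand) and Ptger4 at chr15:5244188-5244437 (minus strand).
Ptgs1: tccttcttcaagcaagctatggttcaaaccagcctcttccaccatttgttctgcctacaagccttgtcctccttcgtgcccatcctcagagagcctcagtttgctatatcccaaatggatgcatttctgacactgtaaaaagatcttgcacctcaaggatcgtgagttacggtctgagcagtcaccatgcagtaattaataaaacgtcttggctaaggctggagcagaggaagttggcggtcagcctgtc
Ptgs2: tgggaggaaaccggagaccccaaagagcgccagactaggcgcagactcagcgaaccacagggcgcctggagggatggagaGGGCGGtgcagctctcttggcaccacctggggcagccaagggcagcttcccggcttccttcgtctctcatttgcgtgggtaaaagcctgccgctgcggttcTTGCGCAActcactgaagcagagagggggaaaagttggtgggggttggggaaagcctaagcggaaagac
Ptger4: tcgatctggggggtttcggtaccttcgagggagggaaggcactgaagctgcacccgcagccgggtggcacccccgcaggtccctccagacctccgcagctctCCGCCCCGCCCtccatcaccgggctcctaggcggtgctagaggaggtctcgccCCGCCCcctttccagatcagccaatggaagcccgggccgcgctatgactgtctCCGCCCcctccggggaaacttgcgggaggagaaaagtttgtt
The Ptgs1 window held none of these motifs. Ptgs2 held 1 C/EBP motif, 69 to 62 bases before the start site, and 1 GC box. The C/EBP motif was in 9.56% and the GC box in 32.7% of all 32851 windows of this length in the table. Ptger4 held 4 GC boxes, a pair of which share 1 base. The half-site was in 17.8% of all windows and in none of the 9 upstream windows of these genes. Some start sites of that table differ from the gene starts given here. The Ptges window lies inside the gene, and the Ptges3 window runs past the gene's start. For Hpgd and Ptger2 the bases after the table's start site were not found in the annotated transcripts.

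In Ptgs2 a half-site and an E-box that overlap by 2 bases lie just past the table's start site, 14 to 22 bases into the gene. The stretch from 150100034 to 150100063 on chromosome 1 (plus strand) is shown because it holds both, in capitals, and it was looked up after the upstream windows had been searched.
Ptgs2 start: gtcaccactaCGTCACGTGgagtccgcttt
In windows that also take in the 50 bases past the start site, the half-site was found in 20.8% and the E-box in 7.15% of all genes' windows. Of the 9 genes with a window, 2 held the half-site there (Ptgs2 and Ptges3) and 2 the E-box (Ptgs2 and Ptges2). A match is a run of letters and says nothing of binding.

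Terminal synthases came next in the pathway, and prostacyclin synthase stood above all of them. Ptgis (ENSMUSG00000017969, chromosome 2, 167191805 to 167240604, minus strand) makes prostacyclin from prostaglandin H2. It was at 215, 241, 251 and 221 FPKM in YKL-05-099 cells and at 249, 297, 276 and 266 FPKM in vehicle cells, so the groups overlapped by 1 library each. The log2 fold change was -0.23 (SE 0.0675, 95% interval -0.38 to -0.08, limma adjusted p = 0.0212). This call ended when vehicle replicate 2 or 3 or YKL-05-099 replicate 1 or 4 was left out, with adjusted p from 0.0526 to 0.0606. It also ended with no filter on low genes (adjusted p = 0.0597) and with the pan-leukocyte covariate (log2 fold change -0.03, adjusted p = 0.905). Ptgis exceeded 97.5% of tested genes in level in YKL-05-099 cells and 97.9% in vehicle cells. The sum of 8 fibroblast markers moved with it. That sum was 555 to 634 FPKM in YKL-05-099 cells, 338 FPKM in cultured cells and 656 to 708 FPKM in vehicle cells. Most of it was Dcn, with means of 503 FPKM in YKL-05-099 cells and 523 FPKM in vehicle cells, which did not pass the test. Dcn was at 243 FPKM in culture, where 5 of the 8 markers reached 1 FPKM. Col1a1, at 32.2 FPKM, was higher there than in any mouse library. The part of fibroblast RNA in the Ptgis result was not tested.

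Prostaglandin E synthases were lower in level than prostacyclin synthase, and no change in them passed the test. Ptges (ENSMUSG00000050737, chromosome 2, 30889471 to 30929863, minus strand) encodes the inducible microsomal enzyme that works with COX-2. It stood at 1.52, 0.881, 1.13 and 1.05 FPKM in YKL-05-099 cells and at 1.33, 1.25, 1.25 and 1.57 FPKM in vehicle cells, with overlapping groups (log2 fold change -0.14, 95% interval -0.38 to 0.10, limma adjusted p = 0.320). Per library, Ptgis was 141.5 to 274 times as high as Ptges in YKL-05-099 cells and 169 to 238 times in vehicle cells.

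Ptges2 (ENSMUSG00000026820, chromosome 2, 32395896 to 32405772, plus strand) encodes a membrane-associated enzyme of the same reaction. It was at 14.5, 13.9, 11.1 and 12.4 FPKM in YKL-05-099 cells and at 13.9, 14.3, 13.7 and 15.5 FPKM in vehicle cells, with overlapping groups (log2 fold change -0.14, 95% interval -0.32 to 0.04, limma adjusted p = 0.175). Ptges3 (ENSMUSG00000071072, chromosome 10, 128058954 to 128077272, plus strand) encodes the cytosolic enzyme, better known as the Hsp90 co-chaperone p23. It was at 55.0, 53.5, 53.7 and 57.7 FPKM in YKL-05-099 cells and at 48.8, 51.2, 49.4 and 55.4 FPKM in vehicle cells. The groups overlapped through vehicle replicate 4, and the log2 fold change was 0.10 (95% interval -0.01 to 0.21, limma adjusted p = 0.120). Without vehicle replicate 4 the log2 fold change was 0.14 with an adjusted p of 0.0234. That library held the highest vehicle value of 6 of the 10 genes, namely Ptgs1, Ptgs2, Ptges, Ptges2, Ptges3 and Ptger4.

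Hpgd (ENSMUSG00000031613, chromosome 8, 56294585 to 56321043, plus strand) encodes 15-hydroxyprostaglandin dehydrogenase, the enzyme that begins the breakdown of prostaglandin E2. Its transcript was scarce and stayed under the level asked for in the test. It stood at 0.194, 0.167, 0.105 and 0.0416 FPKM in YKL-05-099 cells, was listed at 0 in cultured cells and stood at 0.280, 0.324, 0.250 and 0.320 FPKM in vehicle cells. All 4 YKL-05-099 values lay below all 4 vehicle values (two-sided exact permutation test, unadjusted p = 0.0286, the smallest that 4 against 4 libraries can give). Of all 13005 genes under that level with a value above 0 in a mouse library, 3.02% were higher and 5.39% lower with no overlap. The YKL-05-099 mean was 0.432 of the vehicle mean. Without vehicle replicate 2 or vehicle replicate 4 the exact p was 0.0571. Macrophage markers moved the same way, with 23.3 to 90.8 FPKM summed in YKL-05-099 cells, 11.4 FPKM in cultured cells and 157 to 350 FPKM in vehicle cells, and their part in the Hpgd result was not tested.

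Of the receptor genes, EP4 was the one with a readily measured transcript, and it had the largest fold change of the 7 tested genes. Ptger4 (ENSMUSG00000039942, chromosome 15, 5206661 to 5244187, minus strand) stood at 3.74, 3.53, 3.37 and 3.53 FPKM in YKL-05-099 cells and at 1.40, 1.82, 1.80 and 2.29 FPKM in vehicle cells. Every YKL-05-099 value lay above every vehicle value, and the ratio of the means was 1.94. It was the only one of the 7 tested genes whose groups did not overlap, where 26.5% of all genes tested were higher and 13.5% lower with no overlap. The log2 fold change was 0.69 (SE 0.0973, 95% interval 0.48 to 0.91, limma adjusted p = 0.000474), which lies beyond the 95th percentile of all genes tested, 0.61. Leaving out each library in turn gave log2 fold changes of 0.62 to 0.77. With the pan-leukocyte covariate it was 0.50 (SE 0.188, limma adjusted p = 0.168). The part of leukocyte RNA in the Ptger4 difference was not tested. The cultured library had 1.87 FPKM, inside the vehicle range.

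Some exonic bases of Ptger4 are shared with genes on the other strand, and the labels do not say whether the counting used strand. It shares 82 bases with Ttc33, which averaged 32.5 ± 1.87 FPKM in YKL-05-099 cells and 29.0 ± 0.753 FPKM in vehicle cells, and 1015 bases with Gm15937, which averaged 0.0862 ± 0.02003 FPKM in YKL-05-099 cells and 0.0634 ± 0.0699 FPKM in vehicle cells (SD, n = 4 each). The part of these genes' reads in the Ptger4 values was not tested.

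EP2 and IP were close to absent from these libraries. Ptger2 (ENSMUSG00000037759, chromosome 14, 44988195 to 45003820, plus strand) was listed at 0 in YKL-05-099 replicates 1, 3 and 4, in cultured cells and in vehicle replicate 1, and its highest value was 0.0241 FPKM in YKL-05-099 replicate 2 (exact permutation p = 0.486, two-sided). Ptgir (ENSMUSG00000043017, chromosome 7, 16906490 to 16910905, plus strand) stood at 0.00952, 0.0388, 0.0117 and 0.00927 FPKM in YKL-05-099 cells, 0.0794 FPKM in cultured cells and 0.0451, 0.0398, 0.0189 and 0.00781 FPKM in vehicle cells (exact permutation p = 0.343, two-sided). Neither p passed 0.05, and these values carry no counting error by which a difference this small could be judged.

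The order of levels was alike in YKL-05-099 and vehicle cells, with Ptgis first, then Ptgs1, Ptges3, Ptges2, Ptgs2, Ptger4, Ptges, Hpgd, Ptgir and Ptger2. The ranges of neighbours in this order were apart, except for Ptgir and Ptger2 in both groups and for Ptger4 and Ptges in vehicle cells. In culture the order began likewise with Ptgis, Ptgs1 and Ptges3, but Ptgs2 stood above Ptges2 and Ptges above Ptger4.

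In the rest of the pathway, genes grouped here under arachidonate release, not all of which supply arachidonic acid, moved in both directions. A list of 50 further genes of eicosanoid metabolism and signaling had 26 tested ones, of which 13 rose and 5 fell, where 28.0% of all genes tested rose and 15.1% fell. Their median log2 fold change was 0.19, against 0.05 for all genes tested. With median-of-ratios scaling 9 of the 26 rose and 6 fell, where 2469 of all 11788 genes tested rose and 2501 fell. Of 16 genes of arachidonate release, 10 were tested, 6 rose and 3 fell. Pla2g6, a calcium-independent phospholipase A2, averaged 31.5 ± 2.47 FPKM in YKL-05-099 cells and 20.7 ± 1.95 FPKM in vehicle cells, with no overlap (log2 fold change 0.58, SE 0.0765, limma adjusted p = 0.000325). Pla2g4a, the cytosolic phospholipase A2 that prefers arachidonic acid, averaged 12.55 ± 1.09 FPKM in YKL-05-099 cells and 8.96 ± 1.01 FPKM in vehicle cells, again with no overlap (log2 fold change 0.45, SE 0.0830, limma adjusted p = 0.00219).

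The secreted enzyme Pla2g5 rose to 5.98 ± 1.29 FPKM in YKL-05-099 cells, against 3.50 ± 0.770 FPKM in vehicle cells (limma adjusted p = 0.00996), with overlapping groups. The lysosomal Pla2g15 (log2 fold change 0.21), the cytosolic Pla2g4b (0.44) and Faah, the amidase that breaks down anandamide (0.20), rose as well. Pla2g4b passed narrowly (limma adjusted p = 0.0477), with overlapping groups and 4 libraries at 1 FPKM or more, most of them YKL-05-099. Its locus overlaps Gm28042 on the same strand. Pla2g7, the platelet-activating factor acetylhydrolase, fell to 3.20 ± 0.305 FPKM in YKL-05-099 cells, against 5.00 ± 0.921 FPKM in vehicle cells (limma adjusted p = 0.00532). The secreted Pla2g12a (log2 fold change -0.19) and Plaa, a phospholipase A2-activating protein (-0.20), fell too.

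**Figure D3:**
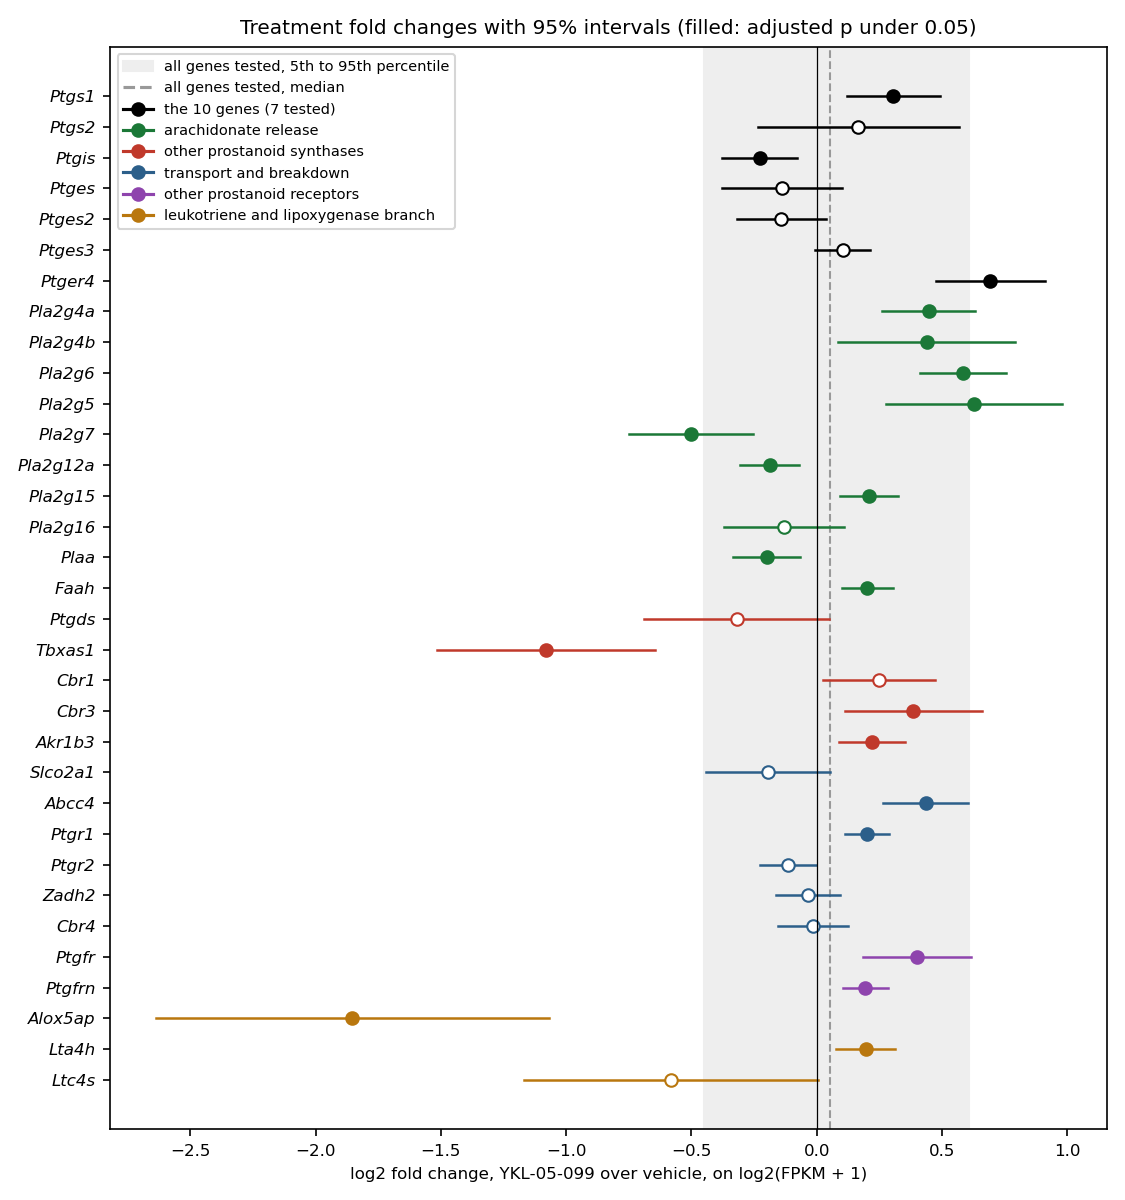
Log2 fold change of YKL-05-099 over vehicle on log2(FPKM + 1), with 95% limma intervals, for the 7 tested genes and for the 26 tested genes of the wider pathway list, colored by role; filled points passed an adjusted p of 0.05 and the gray band spans the 5th to 95th percentile of all genes tested. Ptger4 at 0.69 lies above the band, while Alox5ap at -1.85 and Tbxas1 at -1.08 lie farthest below it. Tbxas1 entered the test through its vehicle values alone.

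Among the other prostanoid synthases, 5 of 8 were tested, 2 rose and 1 fell, where 28.0% of all genes tested rose and 15.1% fell. Tbxas1, which makes thromboxane, averaged 0.222 ± 0.226 FPKM in YKL-05-099 cells and 1.62 ± 0.727 FPKM in vehicle cells. The log2 fold change was -1.08 (SE 0.195, limma adjusted p = 0.00185), and the groups did not overlap. Only 4 libraries reached 1 FPKM, all of them vehicle, so Tbxas1 entered the test through the group where it was high. Its lower call and lack of overlap are therefore not independent of that filter. Akr1b3, an aldose reductase that can make prostaglandin F2 alpha, averaged 80.6 ± 3.92 FPKM in YKL-05-099 cells and 69.0 ± 5.03 FPKM in vehicle cells (log2 fold change 0.22, limma adjusted p = 0.0127), and the carbonyl reductase Cbr3 rose by 0.39 log2 units. Ptgds, a prostaglandin D synthase, averaged 12.5 ± 2.02 FPKM in YKL-05-099 cells and 16.0 ± 3.57 FPKM in vehicle cells (limma adjusted p = 0.144).

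Transport and breakdown had 6 tested genes, of which 2 rose and none fell, where 28.0% of all genes tested rose and 15.1% fell. Abcc4, a transporter that exports prostaglandins, averaged 3.58 ± 0.248 FPKM in YKL-05-099 cells and 2.39 ± 0.220 FPKM in vehicle cells (log2 fold change 0.43, limma adjusted p = 0.00159). Ptgr1, a prostaglandin reductase, averaged 45.0 ± 1.36 FPKM in YKL-05-099 cells and 39.1 ± 0.808 FPKM in vehicle cells (log2 fold change 0.20, limma adjusted p = 0.00300), and its relative Zadh2 had a log2 fold change of -0.03 (limma adjusted p = 0.647). Of 7 other receptor genes, 2 were tested and both rose, too few to set against those shares. Ptgfr, the prostaglandin F receptor, averaged 5.02 ± 0.734 FPKM in YKL-05-099 cells and 3.55 ± 0.327 FPKM in vehicle cells (log2 fold change 0.40, limma adjusted p = 0.00845). Ptgfrn, a membrane protein that binds the prostaglandin F receptor, had a log2 fold change of 0.19 (limma adjusted p = 0.00405).

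In the leukotriene and lipoxygenase branch, 3 of 13 genes were tested. Alox5ap, the activating protein of 5-lipoxygenase, averaged 1.47 ± 1.33 FPKM in YKL-05-099 cells, 0.605 FPKM in cultured cells and 7.54 ± 3.23 FPKM in vehicle cells (log2 fold change -1.85, SE 0.352, limma adjusted p = 0.00246). Lta4h, which makes leukotriene B4, rose by 0.20 log2 units (limma adjusted p = 0.0149), and Ltc4s averaged 5.11 ± 2.33 FPKM in YKL-05-099 cells and 7.81 ± 2.13 FPKM in vehicle cells (limma adjusted p = 0.0989). Tbxas1 and Alox5ap were lowest in YKL-05-099 and cultured libraries and highest in vehicle replicate 2, the library with the highest sum of macrophage markers. Lyz2, the most abundant of those markers, averaged 17.9 FPKM in YKL-05-099 cells and 97.5 FPKM in vehicle cells and stood at 0.0237 FPKM in cultured cells. The part of macrophage RNA in these results was not tested.

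**Figure D4:**
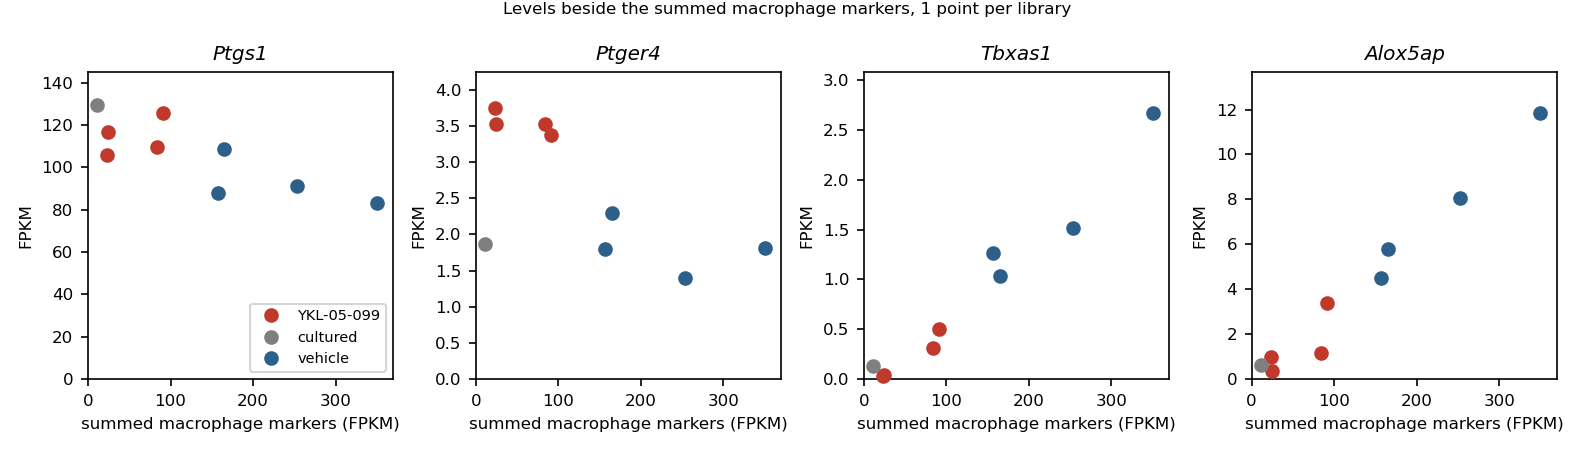
FPKM of Ptgs1, Ptger4, Tbxas1 and Alox5ap against the summed FPKM of 13 macrophage markers, 1 point per library (YKL-05-099 red, cultured gray, vehicle blue). Tbxas1 and Alox5ap are highest at the largest marker sum, 350 FPKM, and Ptger4 lies between 3.37 and 3.74 FPKM in YKL-05-099 libraries, above the 1.87 FPKM of the cultured library and the 1.40 to 2.29 FPKM of vehicle libraries.

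Of the 10 genes, COX-2 differed most between cultured BeCon cells and the sorted cells on the log2(FPKM + 1) scale. Ptgs2 stood at 42.1 FPKM in cultured cells, against 4.86 to 9.43 FPKM in YKL-05-099 cells and 5.42 to 8.50 FPKM in vehicle cells. It lay 2.36 log2 units above the YKL-05-099 mean and 2.52 log2 units above the vehicle mean, 6.39 times the vehicle level. With a single cultured library there is no test, and a gene was counted as apart when its value was beyond the 8 mouse libraries and differed from the vehicle mean by 2 log2 units or more. Among the 7 of the 10 genes with enough transcript to enter, Ptgs2 was apart on the high side and none was apart on the low side, where 2.08% of 12296 genes were apart high and 3.06% apart low. Ptgs2 made up 24.5% of the summed cyclooxygenase level in culture, and the sum was 171.5 FPKM.

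The other 9 genes differed by less on that scale, which compresses differences of scarce genes such as Hpgd. Ptgs1 at 129 FPKM, Ptges at 2.33 FPKM, Ptges3 at 76.0 FPKM and Ptgir at 0.0794 FPKM lay above all mouse libraries in culture. Ptgis at 176 FPKM, Ptges2 at 9.50 FPKM and Hpgd, listed at 0, lay below all of them, and Ptger2 and Ptger4 lay inside the mouse range. Ptgis was 75.4 times as high as Ptges in culture, below its ratio in every mouse library.

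From the wider list, Pla2g4a was also apart on the high side, at 54.2 FPKM in cultured cells, against means of 12.55 FPKM in YKL-05-099 cells and 8.96 FPKM in vehicle cells. It lay 2.48 log2 units above the vehicle mean. Ptgds stood at 0.0399 FPKM in cultured cells, 4.00 log2 units below the vehicle mean, and Pla2g5 was listed at 0 there. The lower fibroblast marker sum in culture was given above, and its part in these differences was not tested. Culture, the sort, the host and a single preparation cannot be told apart here.

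**Figure D5:**
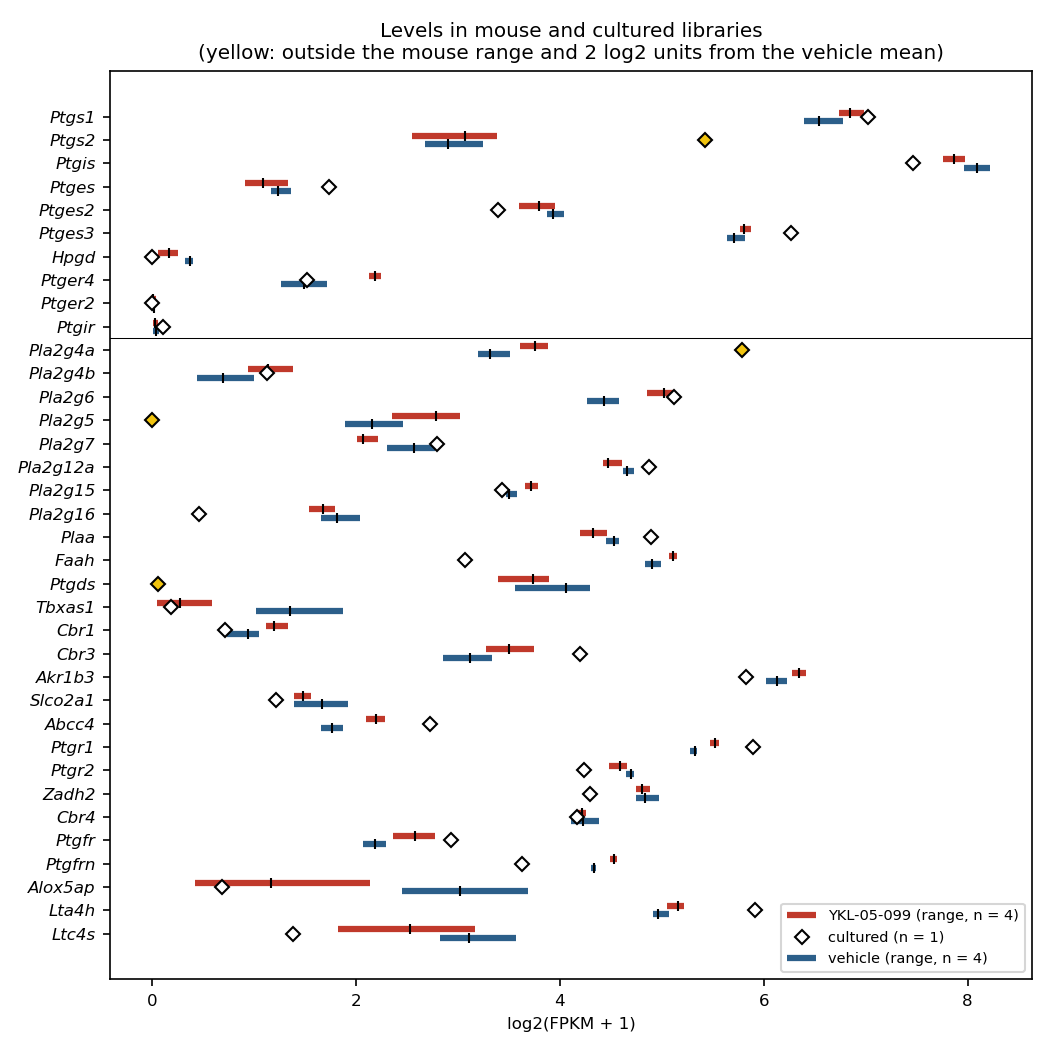
Levels on log2(FPKM + 1) of the 10 genes (top) and the tested genes of the wider pathway list: bars span the 4 YKL-05-099 libraries (red) and the 4 vehicle libraries (blue) with a tick at each mean, and diamonds are the cultured library, yellow where it is apart. Ptgs2 and Pla2g4a are apart on the high side, and Pla2g5 and Ptgds on the low side.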

How the data were processed

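RNA was prepared with a poly(A)-selecting kit that marks strand and sequenced as read pairs, per the labels. The authors deposited FPKM per gene and library. The submitters' processing notes name bcl2fastq 2.19 and GRCm38; no aligner or quantifier is given in the sources used here. Of 48302 rows, 65 repeats of an identifier and 7 genes with a failed estimate were left out. Groups and replicate numbers came from the sample titles.

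YKL-05-099 and vehicle libraries were compared with limma 3.58.1 (R 4.3.3, mean-variance trend) on log2(FPKM + 1), for genes that reached an FPKM of 1 in 4 or more of 8 mouse libraries, with Benjamini-Hochberg adjustment over all 11788. Fold changes are on that scale, which understates the change of low genes. Genes under this level were compared by exact permutation, unadjusted. The functions were tested on simulated data. Named from the 50 further pathway genes were those called, those apart in culture and the 2 with the highest mean level per role, and marker lists could name their 3 most abundant genes; others were named after their values were seen. The genes and lists were chosen with earlier results of these data known. Depth was estimated from 5751 genes with 1 transcript of at least 2 kb and gives no interval for a single gene. Alternatives were pseudocounts of 0.5 and 0.1, no filter or a minimum mean FPKM of 5, scaling by median-of-ratios, TPM or quantiles, each library left out, a replicate block, all 9 libraries in 1 fit and a pan-leukocyte covariate.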

Additional observations from a re-analysis of the deposited data

Results flagged for a closer look

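Within the 4 YKL-05-099 libraries, replicate 2 stood apart for both of the scarcest receptor genes. Ptger2 was at 0.0241 FPKM in YKL-05-099 replicate 2 and listed at 0 in the other 3. Ptgir was at 0.0388 FPKM in YKL-05-099 replicate 2 and at 0.00927 to 0.0117 FPKM in the other 3. In each case the gap to the nearest library, divided by the range of the group, exceeded Dixon's 95% critical value for 4 samples. For Ptger2 this was fixed in advance, since with the other 3 libraries at 0 any value above 0 is flagged. In all, 22 groups of 4 values were checked. Chance flags about 1 in 20, a rate that does not hold for values tied at 0.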

How the results depend on the processing

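Leaving out each library in turn gave 2 to 3 higher and 0 to 1 lower calls among the 7 tested genes, 11 to 13 higher and 3 to 7 lower calls in the wider pathway list, and 2773 to 3473 higher and 1436 to 2060 lower calls among all genes. The lower call of Ptgis was lost without vehicle replicate 2 or 3 or YKL-05-099 replicate 1 or 4. The count of 3 lower pathway calls was without YKL-05-099 replicate 2. With a mean FPKM of at least 5, 1 of the genes was called higher, since this filter leaves out Ptger4. The pathway list then had 2 lower calls, against 8 with no filter. Of all genes tested, 1462 of 9269 were called lower with that filter and 1895 of 24793 with none. With no filter, Hpgd in place of Ptgis was the gene called lower. With the pan-leukocyte markers as a covariate, 0 of the 7 and 0 of the pathway list were called in either direction, 344 genes were called higher and 209 lower in all, and the Ptges3 log2 fold change turned from 0.10 to -0.0027. The covariate separates the groups, and the median SE over all genes was 0.134 with it and 0.0697 without. The labels do not say whether the replicate numbers pair the libraries. Same-numbered libraries correlated at -0.018, 0.133, -0.047 and 0.172 in their deviations from the group means. Not every library correlated best with its own number. Correlations this weak cannot decide whether a number marks a shared origin. A replicate block left 2 higher and 1 lower calls among the 7 genes, gave 13 and 4 in the pathway list and 3148 and 1682 among all genes. The scalings and pseudocounts tried left the calls of Ptgs1, Ptger4 and Ptgis in place. The count of genes apart in culture was 1 high and 0 low in every alternative. FPKM hold no counts, so a counting error for Hpgd, Ptger2 and Ptgir cannot be given.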

Other observations

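Of the 50 further pathway genes, 24 stayed under the level asked for in the treatment test. Pla2g2a and Ptgdr were listed at 0 in all 9 libraries. In 6 of the 24 the mouse groups did not overlap, each with a two-sided exact permutation p of 0.0286, unadjusted and the smallest possible. Of all 13005 genes under that level with a value above 0 in a mouse library, 3.02% were higher and 5.39% lower with no overlap. These 6 were named after their values were seen.

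Pla2g4c, a cytosolic phospholipase A2, was the one that was higher, at 1.31, 1.07, 1.15 and 0.886 FPKM in YKL-05-099 cells, 0.315 FPKM in cultured cells and 0.470, 0.277, 0.417 and 0.392 FPKM in vehicle cells. The other 5 were lower. Alox15, a lipoxygenase of resident peritoneal macrophages in mice, was at 0.158, 0.200, 0.337 and 0.216 FPKM in YKL-05-099 cells, listed at 0 in cultured cells and at 0.696, 1.17, 1.32 and 1.72 FPKM in vehicle cells. Fam213b, a prostaglandin F synthase, was at 0.159, 0.0444, 0.199 and 0.119 FPKM in YKL-05-099 cells, 0.467 FPKM in cultured cells and 0.650, 0.921, 0.803 and 0.259 FPKM in vehicle cells. Cysltr1, Ptger3 and Mgll did not exceed 0.0927 FPKM in YKL-05-099 cells. Between the groups, macrophage markers moved in the same direction as these 5 genes. Their sums were 23.3 to 90.8 FPKM in YKL-05-099 cells and 157 to 350 FPKM in vehicle cells. Within vehicle cells, Alox15 was highest in replicate 4, with a marker sum of 165 FPKM, and Cysltr1 in replicate 2, with 350 FPKM. The part of macrophage RNA in these 5 results was not tested.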
